A study of Mus musculus with 20 samples.

Results

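Ddx4, Dazl, Ybx2, Piwil2, Mael, Asz1, Tdrd1, Tdrd5 and Tdrd7 encode RNA-binding and Piwi-interacting RNA (piRNA) pathway proteins of germ cells. These 9 genes were chosen by name, from 23457 genes counted in each file, and were followed as CPM, the count of a gene scaled to the library's total over genes. Polyadenylated RNA of ovaries was sequenced for 20 females of the Ames dwarf strain, 1 library each and 5 mice in each of 4 groups. Dwarf (df/df) mice are homozygous for a mutation that leaves the pituitary without growth hormone, prolactin and thyrotropin; the effects of the single hormones cannot be told apart. Normal (N/df) mice were heterozygous for the same allele, so no group was free of it. Normal and dwarf mice were each sampled at 6 and at 22 months of age. Ovaries were flash frozen and RNA was taken from whole tissue with Trizol.

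Germ cells carry dense, membrane-free granules in which RNA-binding proteins hold messenger RNAs and small RNAs are made. Piwi proteins loaded with piRNAs silence transposons, and Tudor-domain proteins gather Piwi proteins into the granules by binding their methylated arginines. In the mouse most piRNA genes are known for their necessity in sperm development, while oocytes store large amounts of messenger RNA that proteins such as YBX2 and DAZL stabilise or release for translation.

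Promoter sequences are shown for the 4 genes that fell with age in both genotypes or in 1 of them and whose windows held CACGTG or GGCGGGA, with Dazl for comparison as a called gene whose window held neither of these (it held a CANNTG). Each window is the 250 bases before a RefSeq transcription start in GRCm38.p6, the assembly of the mm10 coordinates, given 5′ to 3′ on the gene's strand. Capitals mark CACGTG, a form of the E-box CANNTG, and GGCGGGA or its reverse complement TCCCGCC, a form of the E2F motif. The windows are chr13:112652311-112652560 on the minus strand for Ddx4, chr1:166238745-166238994 on the minus strand for Mael, chr19:56825959-56826208 on the plus strand for Tdrd1, chr11:69935649-69935898 on the plus strand for Ybx2 and chr17:50293621-50293870 on the minus strand for Dazl, whose RefSeq start is not that of the deposited annotation.
Ddx4: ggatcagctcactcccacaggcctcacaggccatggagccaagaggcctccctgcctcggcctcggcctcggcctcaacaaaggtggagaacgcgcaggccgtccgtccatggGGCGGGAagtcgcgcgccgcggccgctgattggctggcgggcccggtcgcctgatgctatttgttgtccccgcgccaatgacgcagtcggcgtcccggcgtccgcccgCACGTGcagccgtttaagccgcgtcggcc
Mael: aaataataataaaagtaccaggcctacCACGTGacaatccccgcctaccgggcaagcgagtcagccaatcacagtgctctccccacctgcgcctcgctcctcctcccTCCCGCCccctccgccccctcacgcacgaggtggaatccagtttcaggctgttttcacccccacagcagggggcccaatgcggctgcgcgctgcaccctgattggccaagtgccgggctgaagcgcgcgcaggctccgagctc
Tdrd1: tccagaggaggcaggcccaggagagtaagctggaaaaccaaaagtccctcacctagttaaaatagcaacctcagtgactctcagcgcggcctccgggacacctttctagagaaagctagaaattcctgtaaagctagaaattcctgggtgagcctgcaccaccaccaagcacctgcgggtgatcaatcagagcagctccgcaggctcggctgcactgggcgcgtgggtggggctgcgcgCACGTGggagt
Ybx2: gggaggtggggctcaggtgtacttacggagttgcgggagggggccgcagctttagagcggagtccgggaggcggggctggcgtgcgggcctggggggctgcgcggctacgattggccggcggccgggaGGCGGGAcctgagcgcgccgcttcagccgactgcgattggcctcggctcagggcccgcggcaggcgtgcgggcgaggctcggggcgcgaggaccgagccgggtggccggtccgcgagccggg
Dazl: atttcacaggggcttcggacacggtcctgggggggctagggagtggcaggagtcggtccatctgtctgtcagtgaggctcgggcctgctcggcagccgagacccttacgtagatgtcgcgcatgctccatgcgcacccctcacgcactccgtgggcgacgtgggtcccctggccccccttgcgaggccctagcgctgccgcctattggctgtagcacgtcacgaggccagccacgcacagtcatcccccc

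RefSeq windows, 13 in all, were given for 8 of the 9 genes, and Piwil2 had none. A count of genes is therefore not on the scale of a share of windows. Of the 6 member windows at the start of the deposited annotation, 3 held CACGTG and 3 held GGCGGGA or its reverse complement. CACGTG lay in a window of 3 genes: 29 bases before the start of Ddx4, 223 before that of Mael and 11 before that of Tdrd1. Window 2 of Tdrd1 held the same CACGTG, 77 bases before its start, and window 3 of Tdrd1 held none. Of 32851 RefSeq windows of the same length, 6.02% held it on either strand, and every CACGTG is also a CANNTG, which 66.2% held. GGCGGGA lay in windows of Ddx4, 137 bases before the start, of Ybx2, 122 before it, and of Mael, 143 before it on the opposite strand, against 9.75% of all windows. Window 2 of Ybx2 held none. TAATTG, the core of the NOBOX motif, was in 0 of the members' windows and in 7.17% of all windows. The windows printed held 31 CpG pairs for Ddx4, 18 for Mael, 11 for Tdrd1, 35 for Ybx2 and 20 for Dazl, against a median of 6 over all windows (upper quartile 16). All but that of Dazl were chosen for motifs that themselves hold a CpG. The windows not printed held 29 for Ybx2, 22 and 3 for Tdrd1, 40 for Tdrd5, 3, 28 and 29 for Tdrd7 and 15 for Asz1. Each match is a stretch of letters and not a measured binding site.

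Library totals over genes lay between 1365640 and 36068284 counts. Ovarian identity was checked with marker genes: 8 oocyte genes summed to 274 CPM on average in normal and 429 CPM in dwarf ovaries at 6 months, and 4 testis-type germ cell markers summed to at most 0.673 CPM in any library. Some libraries stood apart. Normal 6-month replicate 2 held 5.39 CPM of the oocyte markers and 5980 CPM of oviduct secretory markers, the highest oviduct sum of all libraries. It held 73.3 CPM of granulosa markers against a group median of 2960 CPM, and 122 CPM of luteal markers against a median of 9620 CPM. These values go against its ovary label, and what tissue it holds was not tested; the group means below include it. Normal 6-month replicate 3 was the shallowest library, and normal 22-month replicate 3 held 697 CPM of lymphocyte markers. A chi-square of counts over genes, per degree of freedom, was 2.42 between dwarf 22-month replicates 1 and 4 and 11.6 or more in every other pair of a group. Since it exceeded sampling noise (a value near 1), the pair stayed 2 samples of the 5, and whether the pair are repeats of 1 sample is not known. With both summed as 1 library the number of members called was the same in every comparison. Values without the libraries that stood apart are given where they change a call or a count. Adjusted p-values below come from the quasi-likelihood test of edgeR with Benjamini-Hochberg adjustment over 16099 genes, a call is an adjusted p under 0.05, and changes are log2 values ± SE. Asz1 had too few counts to be tested, which left 8 of the 9 genes. The pairwise comparisons share groups of libraries and are not independent of each other.

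**Figure D1:**
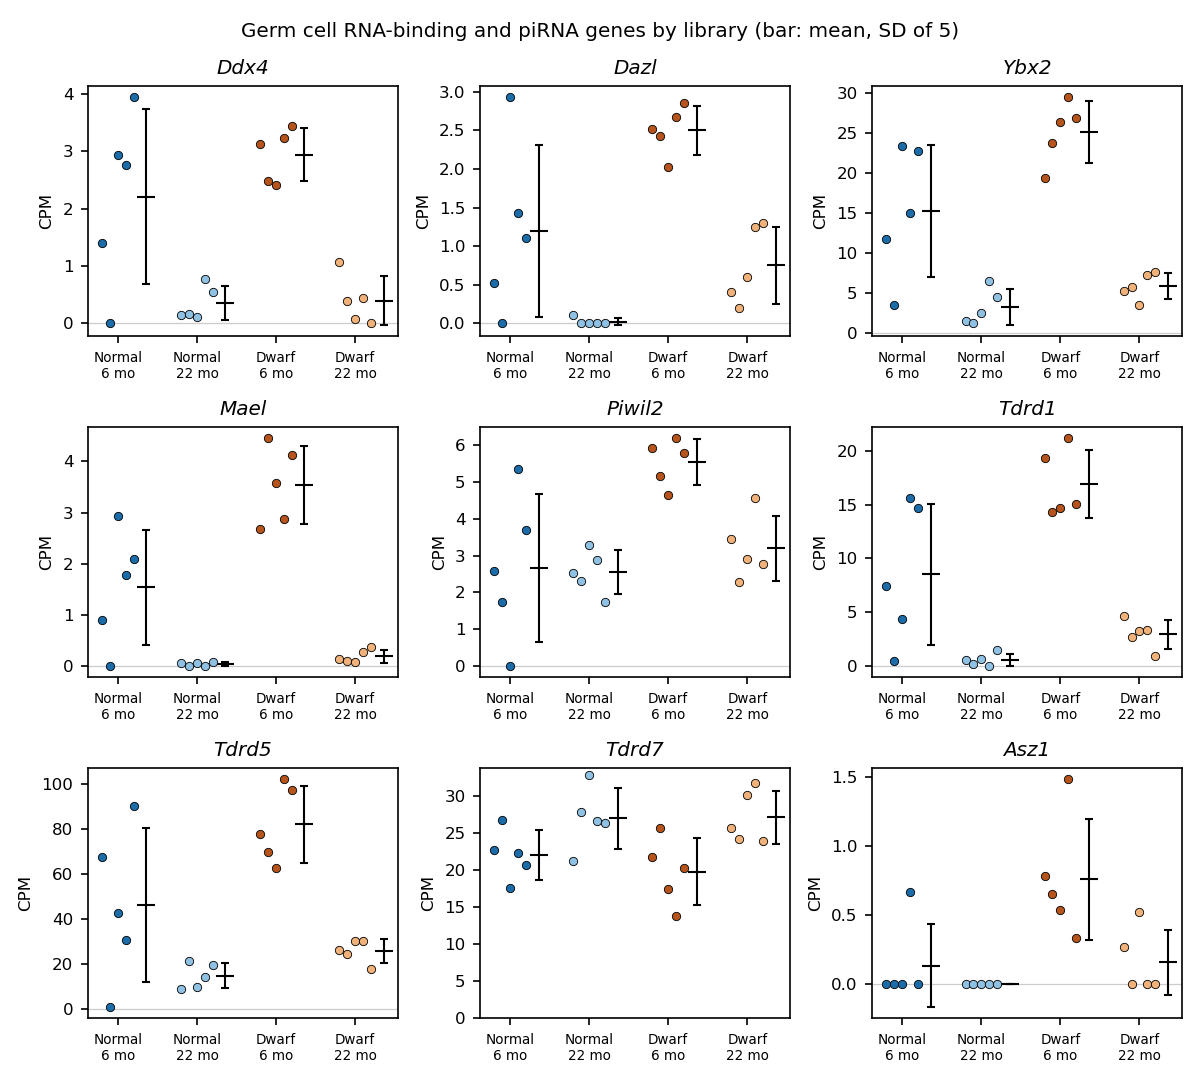
CPM of each of the 9 genes in the 20 libraries, by genotype and age; points are libraries, bars are group means, and each panel has its own linear axis. Levels of Ddx4, Ybx2, Mael, Tdrd1 and Tdrd5 in the dwarf 6-month libraries lie above the libraries of both 22-month groups, and normal 6-month replicate 2 lies low in its group for these genes.

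Between 6 and 22 months, 4 of the 8 tested genes fell in normal ovaries (Dazl, Ybx2, Mael and Tdrd1), where 4.14% of all tested genes fell, and none of the 8 rose. In dwarf ovaries 4 of the 8 fell (Ddx4, Ybx2, Mael and Tdrd1), where 8.27% of all tested genes fell. Fewer germ cells and less RNA per germ cell cannot be told apart in whole ovaries. All 8 oocyte markers fell too, with a median log2 change of -4.12 in normal and -2.77 in dwarf mice. Oviduct secretory markers summed to 1280 CPM on average at 6 months and 2530 CPM at 22 months in normal mice. The 1280 CPM rests on replicate 2, and the medians there were 124 and 2370 CPM. In dwarf mice the means were 558 and 2540 CPM. EdgeR called 0 of the 4 tested oviduct markers with age in either genotype. Without the 3 libraries that stood apart it called 4 in normal (median log2 4.21) and 1 in dwarf mice (median 1.98). Over all 16366 genes of that fit it called 4848 in normal and 4697 in dwarf mice, in either direction. Granulosa markers summed to 2440 and 775 CPM at 6 and 22 months in normal and to 2640 and 1240 CPM in dwarf mice, with 1 of 6 called lower in each genotype. That gene, Amh, fell in normal (log2 -4.65 ± 0.715, edgeR adjusted p = 0.00671) and dwarf mice (-3.02 ± 0.652, adjusted p = 0.0078). Without the 3 libraries that stood apart, 5 of the 6 granulosa markers were called with age in normal and 3 in dwarf mice, against the same counts over all genes. Adipocyte markers summed to 79.8 and 132 CPM in normal and to 24.8 and 106 CPM in dwarf mice, where 2 of 3 rose. Without those 3 libraries, 1 of the 3 adipocyte markers was called in normal and 3 in dwarf mice, again against 4848 and 4697 of 16366 genes. The part of these markers in the members' changes was not tested. Taken per kilobase of exon, the order of levels in dwarf 6-month ovaries was Tdrd5 (23.8 ± 5.01 CPM per kb), Ybx2 (16.0 ± 2.44), Tdrd7 (5.64 ± 1.28), Tdrd1 (3.11 ± 0.573) and Mael (2.29 ± 0.496), then Piwil2 (1.13 ± 0.128), Ddx4 (1.03 ± 0.16), Dazl (0.85 ± 0.106) and Asz1 (0.434 ± 0.25). Within that order the spreads of Tdrd1 and Mael overlapped, as did those of Ddx4 and each of its neighbours, Piwil2 and Dazl. At 22 months Tdrd7 came first in normal mice at 7.68 ± 1.18 CPM per kb, above Tdrd5 at 4.27. In dwarf mice Tdrd7 at 7.72 ± 1.02 and Tdrd5 at 7.47 ± 1.52 lay within the spread (SD, n = 5).

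Ddx4 (mm10 chromosome 13, 112598333 to 112652310, minus strand) encodes the germline DEAD-box RNA helicase also called mouse Vasa homolog. Its 5 normal libraries held 1.41, 0, 2.93, 2.76 and 3.94 CPM at 6 months and 0.148, 0.172, 0.118, 0.771 and 0.553 CPM at 22 months. The 5 dwarf libraries held 3.12, 2.49, 2.42, 3.23 and 3.44 CPM at 6 months and 1.07, 0.395, 0.0744, 0.448 and 0 CPM at 22 months. Dwarf groups did not overlap, while in normal mice the library at 0 among the young, replicate 2, lay below every old library. Ddx4 fell with age in dwarf mice (log2 -2.97 ± 0.825, edgeR adjusted p = 0.0269) but the call was lost in 8 of the 10 fits that left out 1 dwarf library, with adjusted p between 0.05 and 0.0733. In normal mice the change of -2.79 ± 0.848 missed the threshold (edgeR adjusted p = 0.0534) and passed it without normal 6-month replicate 2 (-3.12, adjusted p = 0.00141).

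Dazl (chromosome 17, 50279394 to 50293599, minus strand) encodes an RNA-binding protein that promotes translation of stored germ cell messenger RNAs. Normal libraries held 0.514, 0, 2.93, 1.43 and 1.11 CPM at 6 months, and at 22 months 0.0987 CPM in replicate 1 and 0 in the other 4. Dwarf libraries held 2.52, 2.43, 2.02, 2.67 and 2.86 CPM at 6 months and 0.4, 0.198, 0.595, 1.25 and 1.3 CPM at 22 months. Dwarf mice of both ages thus lay above every normal 22-month library. Dazl fell with age in normal mice (log2 -4.78 ± 1.02, edgeR adjusted p = 0.0125). The call was lost without the libraries of title numbers 21 to 23 (adjusted p = 0.0706). When only the normal groups were fitted, Dazl had too few counts to be tested. The fitted fold in normal mice depends on the prior count, since the normal 22-month libraries held 2 counts in all. Pooled counts of 58 and 2 gave a 32.3-fold ratio, with an exact binomial 95% interval of 8.54 to 273 that covers counting error only. In dwarf mice the age change of -1.84 ± 0.698 missed the threshold (edgeR adjusted p = 0.0929), although the groups did not overlap. It passed without the 3 libraries that stood apart (-1.82 ± 0.463, edgeR adjusted p = 0.00866). With only the dwarf groups fitted (edgeR adjusted p = 0.00656) and in limma voom (adjusted p = 0.000349) it passed as well, but not in DESeq2.

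Ybx2 (chromosome 11, 69935899 to 69941599, plus strand), also called Msy2, encodes the Y-box protein that coats and stabilises maternal messenger RNAs of the oocyte. Its normal libraries held 11.8, 3.5, 23.4, 15.0 and 22.7 CPM at 6 months and 1.48, 1.29, 2.54, 6.56 and 4.56 CPM at 22 months. In dwarf mice the values were 19.3, 23.7, 26.3, 29.4 and 26.8 CPM at 6 months and 5.33, 5.83, 3.49, 7.26 and 7.59 CPM at 22 months. Each dwarf library at 6 months lay above all 22-month libraries, and among the normal young only replicate 2 overlapped the old. Ybx2 fell with age in normal (log2 -2.30 ± 0.47, edgeR adjusted p = 0.0107) and in dwarf mice (-2.18 ± 0.456, adjusted p = 0.00649). The normal call was lost when only the normal groups were fitted (adjusted p = 0.214) and without the libraries of title numbers 21 to 23 (0.0714).

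Piwil2 (chromosome 14, 70372480 to 70429094, minus strand) encodes MILI, the Piwi protein that takes up piRNAs in the cytoplasm. Normal libraries held 2.57, 1.75, 0, 5.35 and 3.69 CPM at 6 months and 2.52, 2.32, 3.3, 2.89 and 1.73 CPM at 22 months, with the ranges overlapping. The library at 0 is the shallowest, normal 6-month replicate 3, where 3 counts would be 2.2 CPM. Dwarf libraries held 5.92, 5.16, 4.64, 6.19 and 5.79 CPM at 6 months and 3.46, 2.27, 2.9, 4.57 and 2.78 CPM at 22 months, with no overlap. The age change was -0.19 ± 0.387 in normal (edgeR adjusted p = 0.811) and -0.88 ± 0.382 in dwarf mice (adjusted p = 0.141), neither past the threshold. Without the 3 libraries that stood apart, the dwarf change of -0.84 ± 0.237 passed it (adjusted p = 0.0158).

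Mael (chromosome 1, 166201385 to 166238744, minus strand) encodes Maelstrom, a granule protein needed for transposon silencing in the mouse testis. Normal libraries held 0.899, 0, 2.93, 1.78 and 2.09 CPM at 6 months and 0.0493, 0, 0.059, 0 and 0.0691 CPM at 22 months. Dwarf libraries held 2.68, 4.45, 3.57, 2.88 and 4.13 CPM at 6 months and 0.133, 0.0988, 0.0744, 0.269 and 0.37 CPM at 22 months. In dwarf mice the lowest young library held several times the highest old one, and normal replicate 2 at 0 is what made the normal groups overlap. Mael fell with age in normal (log2 -4.79 ± 0.868, edgeR adjusted p = 0.00812) and dwarf mice (-4.35 ± 0.748, adjusted p = 0.00209). When only the normal groups were fitted, Mael had too few counts to be tested. The normal 22-month libraries held 3 counts in all against 85 at 6 months, a pooled 31.5-fold ratio (exact binomial 95% interval 10.4 to 156, counting error only).

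Asz1 (chromosome 6, 18050964 to 18109061, minus strand) encodes GASZ, a mitochondrial outer-membrane protein that anchors the piRNA machinery. It was detected in all 5 dwarf 6-month libraries, at 0.779, 0.653, 0.539, 1.48 and 0.333 CPM, and in dwarf 22-month replicates 1 and 3, at 0.266 and 0.521 CPM. Among normal mice it had counts in a single library, 6-month replicate 4, at 0.669 CPM. The dwarf libraries at 6 and 22 months held 77 and 9 counts in all, a pooled ratio of 3.57 (exact binomial 95% interval 1.79 to 8.11). Normal 22-month libraries held 0 counts, which against the 15 at 6 months is at least 5.57-fold lower when 3 counts over the group are taken as the floor. All 15 came from replicate 4, and without it both normal groups were at 0 and no fold can be given.

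Tdrd1 (chromosome 19, 56826209 to 56870012, plus strand) encodes a Tudor protein that binds MILI. Normal libraries held 7.45, 0.437, 4.39, 15.6 and 14.7 CPM at 6 months and 0.493, 0.172, 0.59, 0 and 1.45 CPM at 22 months. Dwarf libraries held 19.4, 14.3, 14.7, 21.2 and 15.1 CPM at 6 months and 4.66, 2.67, 3.2, 3.32 and 0.926 CPM at 22 months. Old and young dwarf libraries were widely separated, and in normal mice replicate 2 at 6 months lay within the old range. Tdrd1 fell with age in normal (log2 -3.88 ± 0.719, edgeR adjusted p = 0.00814) and dwarf mice (-2.59 ± 0.652, adjusted p = 0.0164). The normal call was lost when only the normal groups were fitted (adjusted p = 0.214).

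Tdrd5 (chromosome 1, 156255296 to 156303348, minus strand), a Tudor and LOTUS domain gene, had the highest mean level per kilobase of the 9 genes at 6 months in both genotypes. Normal libraries held 67.3, 0.874, 42.5, 30.6 and 90.0 CPM at 6 months and 8.98, 21.3, 9.61, 14.1 and 19.6 CPM at 22 months. Dwarf libraries held 77.8, 69.9, 62.7, 102 and 97.5 CPM at 6 months and 26, 24.4, 30.3, 30.3 and 17.6 CPM at 22 months. Dwarf groups did not overlap, and the normal groups overlapped through replicate 2, where Tdrd5 was lower than in any other library. The age change was -1.68 ± 0.602 in normal (edgeR adjusted p = 0.0991) and -1.76 ± 0.596 in dwarf mice (adjusted p = 0.0633), both short of the threshold. Without normal 6-month replicate 2 the normal change was -1.96 (adjusted p = 0.000194), and without the 3 libraries that stood apart the dwarf change was -1.72 ± 0.282 (adjusted p = 0.000501).

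Tdrd7 (chromosome 4, 45987462 to 46034759, plus strand) encodes a Tudor and LOTUS domain protein of germ cell granules that is also required in the lens. Normal libraries held 22.7, 26.8, 17.6, 22.3 and 20.7 CPM at 6 months and 21.2, 27.8, 32.8, 26.6 and 26.4 CPM at 22 months. Dwarf libraries held 21.8, 25.7, 17.4, 13.8 and 20.2 CPM at 6 months and 25.6, 24.2, 30.1, 31.7 and 23.9 CPM at 22 months. All 4 groups overlapped, and the oocyte-poor normal replicate 2 held 26.8 CPM, the highest of its group. The age change was 0.27 ± 0.161 in normal (edgeR adjusted p = 0.332) and 0.38 ± 0.16 in dwarf mice (adjusted p = 0.132). Without the 3 libraries that stood apart the dwarf rise of 0.41 ± 0.144 passed the threshold (adjusted p = 0.0411).

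**Figure D2:**
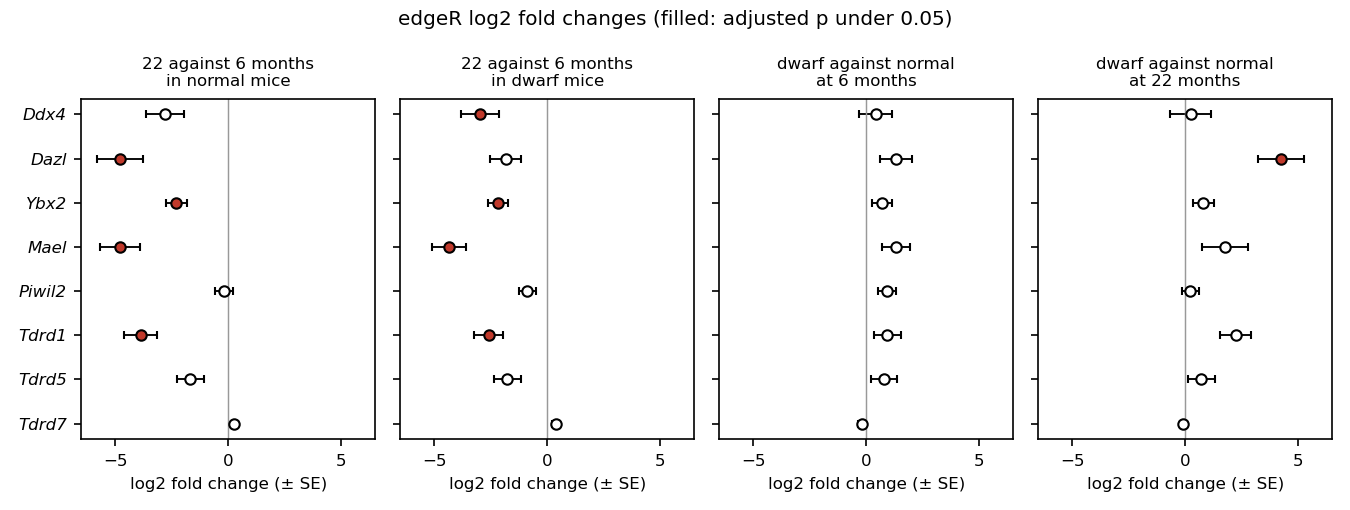
Log2 change ± SE of the 8 tested genes in each pairwise comparison, from edgeR; filled points have an adjusted p under 0.05. Mael (-4.79) and Dazl (-4.78) have the lowest fitted age changes in normal mice, within their SE of each other, Mael (-4.35) has the lowest in dwarf mice, and Tdrd7 is the single gene with a value above 0 for age.

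By overlap of single libraries, 0 of the 9 genes separated the ages in normal mice (1.01% of tested genes had every old library below every young one), whereas 7 of the 9 did in dwarf mice (12.2% of genes), the exceptions being Tdrd7 and Asz1. Without normal 6-month replicate 2, 6 genes separated the ages in normal mice: Ddx4, Dazl, Ybx2, Mael, Tdrd1 and Tdrd5 (5.22% of genes). Without all 3 libraries that stood apart the same 6 genes did so (15.9% of genes). Tested without those 3 libraries, 6 of the 8 genes fell in normal mice (12.9% of 16366 tested genes fell), and in dwarf mice 7 fell (15.4% of genes) and Tdrd7 rose (13.3% of genes).

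Dwarf and normal ovaries were next compared at the same age. At 6 months 0 of the 8 genes passed edgeR's threshold, where 4.57% of all tested genes did. Mael and Piwil2 were the genes with an unadjusted p under 0.05 (2 of 8), and both DESeq2 and limma voom called 0 as well. The values were higher in dwarf mice for 7 of the 8 genes, with Dazl at 1.33 ± 0.712 (edgeR adjusted p = 0.34), Mael at 1.32 ± 0.624 (adjusted p = 0.267) and Piwil2 at 0.92 ± 0.384 (adjusted p = 0.194), and Tdrd7 was at -0.20 ± 0.161. The groups overlapped for each of the 9 genes, where 4.07% of genes had every dwarf library above every normal one. Without the 3 libraries that stood apart the groups no longer overlapped for Dazl and Mael (9.5% of genes), and the counts called stayed at 0.

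At 22 months Dazl was higher in dwarf ovaries (log2 4.26 ± 1.02, edgeR adjusted p = 0.0239), 1 of 8 genes where 1.96% of all tested genes were higher. The 8 oocyte markers summed to a median of 71.3 CPM in dwarf and 11.7 CPM in normal mice (ranges 52.4 to 84.3 and 6.61 to 43.3), with values above 0 for all 8 and a median of 1.92. None was called by edgeR (0, with 5 at an unadjusted p under 0.05, 2 called by DESeq2 and 1 by limma voom). Without the 3 libraries that stood apart edgeR called 4 of the 8 markers (median 1.71), and 1762 of all 16366 genes. The part of these markers in the difference of Dazl was not tested. Its 5 dwarf libraries, at 0.198 to 1.3 CPM, lay above the 5 normal ones, and the pooled counts of 34 and 2 gave a 24.5-fold ratio (exact binomial 95% interval 6.27 to 210, counting error only). The call was lost without normal replicate 3 (adjusted p = 0.0538), without dwarf replicate 4 (0.0707), without dwarf replicate 5 (0.0556) and without title numbers 21 to 23 (0.107). When only the 22-month groups were fitted, Dazl had too few counts to be tested. Tdrd1 stood at 2.23 ± 0.699 (edgeR adjusted p = 0.0817) and passed in DESeq2 (adjusted p = 0.0132), in limma voom (0.0435) and without the 3 libraries that stood apart (0.0141). Mael, at 8 against 3 counts, had a pooled ratio of 3.84 with an exact binomial 95% interval of 0.921 to 22.5, although its groups did not overlap. Dazl and Mael were the genes without overlap in this comparison (5.16% of genes). Asz1, with 9 counts against 0, was at least 4.32-fold higher in dwarf mice against the same floor, but 7 of the 9 counts were in replicate 3, and the 2 left without it (0.0585 CPM) are 1.34 times the floor. Ddx4 stood at 0.352 ± 0.294 CPM in normal and 0.397 ± 0.422 CPM in dwarf mice (SD, n = 5; log2 0.25 ± 0.9, edgeR adjusted p = 0.943).

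The difference of the age changes, dwarf minus normal, was tested directly. None of the 16099 genes passed in edgeR (0 called, or 0%, 1127 with an unadjusted p under 0.05, 17 called by DESeq2 and 9 by limma voom), and 0 of the 8 genes passed in any of the 3 tools. Dazl had the member difference with an unadjusted p under 0.05, at 2.94 ± 1.24 (edgeR adjusted p = 0.652), and Tdrd1 stood at 1.29 ± 0.914 (adjusted p = 0.876). Calls that appear in 1 genotype and not in the other, such as Ddx4 and Dazl with age, are thus not shown to differ between genotypes.

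The order of group means was the same for 6 of the 9 genes: dwarf 6 months, normal 6 months, dwarf 22 months, normal 22 months. They were Ddx4, Dazl, Ybx2, Mael, Tdrd1 and Tdrd5. For Piwil2 and Asz1 the dwarf 22-month mean came above the normal 6-month mean, at 3.2 ± 0.876 against 2.67 ± 2.01 CPM for Piwil2, a difference within the spread. Tdrd7 ran the other way, from 27.1 ± 3.58 CPM in dwarf and 27 ± 4.14 CPM in normal mice at 22 months to 22.0 ± 3.35 and 19.8 ± 4.5 CPM in normal and dwarf mice at 6 months.

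Each gene was then set against the oocyte content of its own library, as the log2 ratio of its CPM to the summed CPM of Zp1, Zp2, Zp3, Gdf9 and Bmp15, zona pellucida and oocyte growth factor genes, with 0.5 counts added. That sum was 241 ± 154 CPM in normal and 373 ± 63.1 CPM in dwarf mice at 6 months and 15.9 ± 13.8 and 62.1 ± 12.0 CPM at 22 months (SD, n = 5). It was thus lower at 22 months, and lower in normal than in dwarf mice. Where the sum is lower, a gene of unchanged CPM has a higher ratio. In dwarf mice the ratio of Tdrd1 differed by -0.044 between the ages and that of Ybx2 by 0.48, both with overlapping groups. Ratios of Tdrd5 (0.92), Piwil2 (1.79) and Tdrd7 (3.07) were higher at 22 months with no overlap between the groups. In normal mice the ratio was higher at 22 months by 2.53 for Tdrd5, with no overlap, and differed by -0.43 for Tdrd1, by 1.08 for Ybx2, by 3.62 for Piwil2 and by 3.58 for Tdrd7, with overlap. Without normal 6-month replicate 2 the differences were 1.94 for Ybx2, 4.89 for Piwil2 and 4.98 for Tdrd7, and the groups of these 3 genes no longer overlapped. For Tdrd1 the difference turned to 0.034 without that library and to 0.30 without normal 22-month replicate 4, which held 0 counts of the gene. Ratios of Ddx4, Dazl, Mael and Asz1 at 22 months, and of Tdrd1 in normal mice at that age, rest on few counts or none and vary with the 0.5 added. Between dwarf and normal mice at 22 months the ratio differed by -2.36 for Tdrd7, lower in dwarf mice and with no overlap. The CPM of Tdrd7 itself was alike there, at 27.1 ± 3.58 in dwarf and 27 ± 4.14 in normal mice. The 5-gene sum was 62.1 against 15.9 CPM. No test was made on the ratios, and the share of all genes without overlap in such a ratio was not computed.

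**Figure D3:**
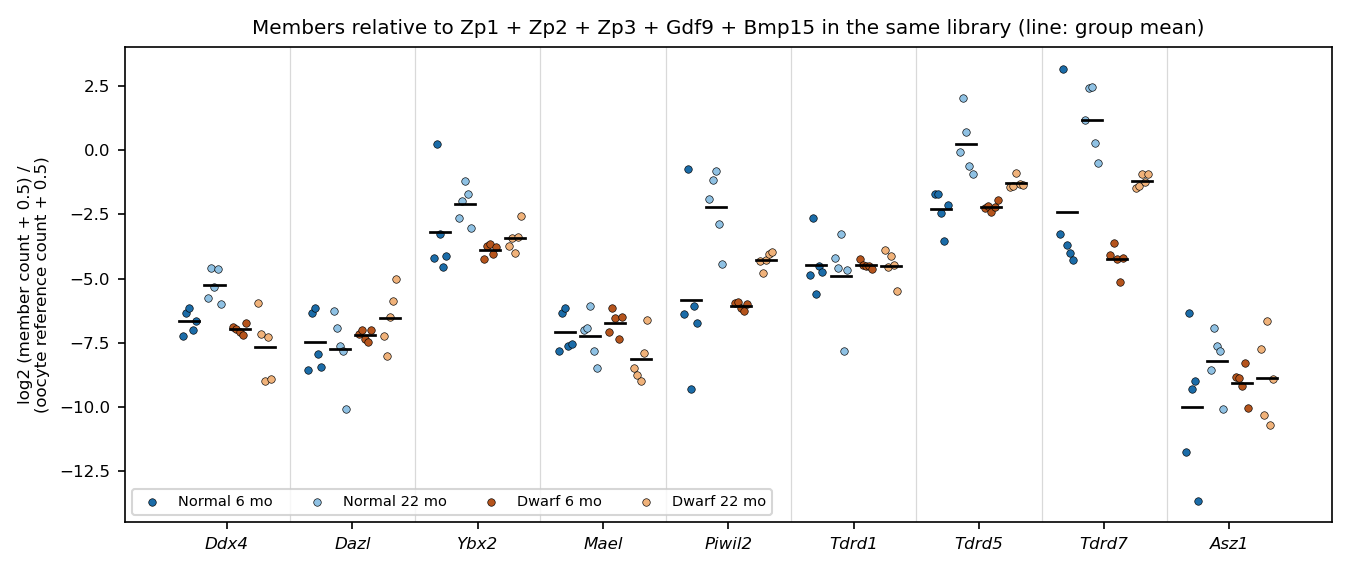
Log2 ratio of each gene to the summed CPM of 5 oocyte genes, by group, with 0.5 counts added; points are libraries and bars are means. Group means of Tdrd1 lie between -4.90 and -4.46. The lowest, that of normal 22-month libraries, becomes -4.17 without the library at 0 counts. The mean of Tdrd7 goes from -4.25 in dwarf 6-month to 1.17 in normal 22-month libraries, the groups with the highest and lowest mean of the 5-gene sum.

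Across the 20 libraries the log2 CPM of Ddx4, Dazl, Ybx2, Mael, Tdrd1 and Tdrd5 moved together, with Pearson's r of 0.687 to 0.929 over their 15 pairs and a median of 0.82. After subtracting group means, r ranged from 0.37 to 0.902. Correlations with Tdrd7 ran from -0.692 to 0.0761. Piwil2 had r of 0.121 to 0.302 with those 6 genes over all libraries, and -0.255 to 0.217 after subtracting group means. Without the 3 libraries that stood apart its r was 0.697 to 0.874. This lay within the range of the 15 pairs there, 0.577 to 0.919. The points share libraries, groups and depth, so these values are descriptions.

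Among all tested genes, those whose log2 CPM ran most like each member over the 20 libraries were named by the highest r. For Ddx4 they were Gm13125 (0.977), Dut (0.954) and Btg4 (0.939). For Mael they were Gtsf1 (0.969), Sohlh1 (0.966) and Metrnl (0.961), and for Ybx2 Ooep (0.95), Nobox (0.948) and Pabpn1l (0.945). Tdrd1 ran with Zfp41 (0.973), Mos (0.969) and Nlrp14 (0.969), Dazl with Wfdc10 (0.953), Elavl3 (0.951) and Gm13944 (0.936), and Tdrd5 with Nipal1 (0.968), Grb14 (0.937) and Ankrd50 (0.936). For Tdrd7 the highest values were lower, at 0.813 for Cyb5b, 0.81 for Ugp2 and 0.808 for Ostm1. Piwil2 ran with Mtmr3 (0.948), Vps33a (0.948) and Clca1 (0.947). When the 3 libraries that stood apart were left out, these became 0.713, 0.898 and 0.74.

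Other genes of the piRNA pathway were listed apart from the members. Of 22 listed, 20 were in the files and 18 were tested. In normal mice 7 fell and 0 rose with age, with a median of -0.90 against -0.017 over all tested genes, and in dwarf mice 5 fell and 0 rose, with a median of -0.92 against 0.0021. Leaving out the 3 libraries that stood apart, edgeR called 10 in normal and 8 in dwarf mice (medians -0.67 and -0.89). That fit called 4848 and 4697 of all 16366 genes, all counted in either direction. Gtsf1, a zinc-finger cofactor of Piwi proteins, fell in normal (log2 -3.60 ± 0.791, edgeR adjusted p = 0.0134) and dwarf mice (-3.71 ± 0.724, adjusted p = 0.00458). Mov10l1, the helicase that feeds piRNA precursors to MILI, changed by -2.80 in normal (adjusted p = 0.0274) and -4.12 in dwarf mice (adjusted p = 0.00254). Prmt5, the methyltransferase that marks Piwi proteins for Tudor binding and acts in all cells, fell less, from 88.1 ± 8.83 to 67.8 ± 4.19 CPM in normal (log2 -0.41, adjusted p = 0.0168) and from 93.4 ± 7.44 to 76.9 ± 6.16 CPM in dwarf mice (-0.36, adjusted p = 0.0206). Between genotypes edgeR called 0 of the 18 at either age (3 and 4 with an unadjusted p under 0.05, DESeq2 2 and 0, limma voom 3 and 1). Without the 3 libraries it called 1 at 6 months and 0 at 22 months, against 1991 and 1762 of all 16366 genes.

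Of 19 other germ cell RNA-binding and translation genes, 14 were tested. In normal mice 4 fell and 0 rose with age (median -1.91), and in dwarf mice 7 fell and 0 rose (median -1.75). The calls in either direction numbered 10 in normal and 9 in dwarf mice without the 3 libraries that stood apart (medians -2.63 and -1.88). Of all 16366 genes of that fit, 4848 and 4697 were called. Zar1, which stores maternal messenger RNAs in the oocyte, fell from 16.8 ± 10.1 to 1.3 ± 1.48 CPM in normal (log2 -3.77, edgeR adjusted p = 0.0179) and from 26.9 ± 3.36 to 3.37 ± 0.977 CPM in dwarf mice (-3.07, adjusted p = 0.0243). Eif4e1b, an oocyte form of the cap-binding protein, changed by -3.86 in normal (adjusted p = 0.0126) and by -2.87 in dwarf mice (adjusted p = 0.0225). Lsm14b fell in dwarf mice from 101 ± 3.92 to 74.3 ± 5.92 CPM (-0.52, adjusted p = 0.0141). No gene of this list was called between genotypes by edgeR at either age (0 and 0, with 0 and 1 at an unadjusted p under 0.05, DESeq2 0 and 1, limma voom 0 and 0). Without the 3 libraries edgeR called 0 at 6 months and 2 at 22 months, against 1991 and 1762 of all 16366 genes.

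Relatives of the members that act in all cells were taken as the third list, 15 of them tested. Age called 2 lower in each genotype, with Csda, the Y-box gene now named Ybx3, at -0.69 (edgeR adjusted p = 0.0329) in normal and -0.84 (adjusted p = 0.00898) in dwarf mice, and medians of -0.12 and -0.091. Without the 3 libraries that stood apart, the numbers called in either direction were 4 in normal and 6 in dwarf mice. Over all 16366 genes they were 4848 and 4697. Ybx1, the general Y-box protein and relative of Ybx2, was lower in dwarf mice at 6 months (461 ± 20.4 against 722 ± 138 CPM, log2 -0.69 ± 0.139, adjusted p = 0.00722) and at 22 months (375 ± 26.3 against 553 ± 115 CPM, -0.65 ± 0.139, adjusted p = 0.0138), whereas Ybx2 had values above 0 in both comparisons, short of the threshold. Snd1, a Tudor-domain nuclease, was also lower in dwarf mice at 22 months (-0.48, adjusted p = 0.0361) and fell with age in dwarf mice (-0.68, adjusted p = 0.00351). Among 11 tested genes of the microRNA and short interfering RNA machinery edgeR called 0 with age in either genotype (1 and 1 at an unadjusted p under 0.05, DESeq2 0 and 0, limma voom 1 and 2), with medians of -0.066 and -0.091. Without the 3 libraries that stood apart, edgeR called 3 of the 11 with age in normal mice (median -0.28) and 1 in dwarf mice (median -0.052). Over all 16366 genes of that fit it called 4848 and 4697 with age, in either direction. It called 0 between genotypes at either age, where the number with an unadjusted p under 0.05 was also 0, as were the calls of limma voom and DESeq2.

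**Figure D4:**
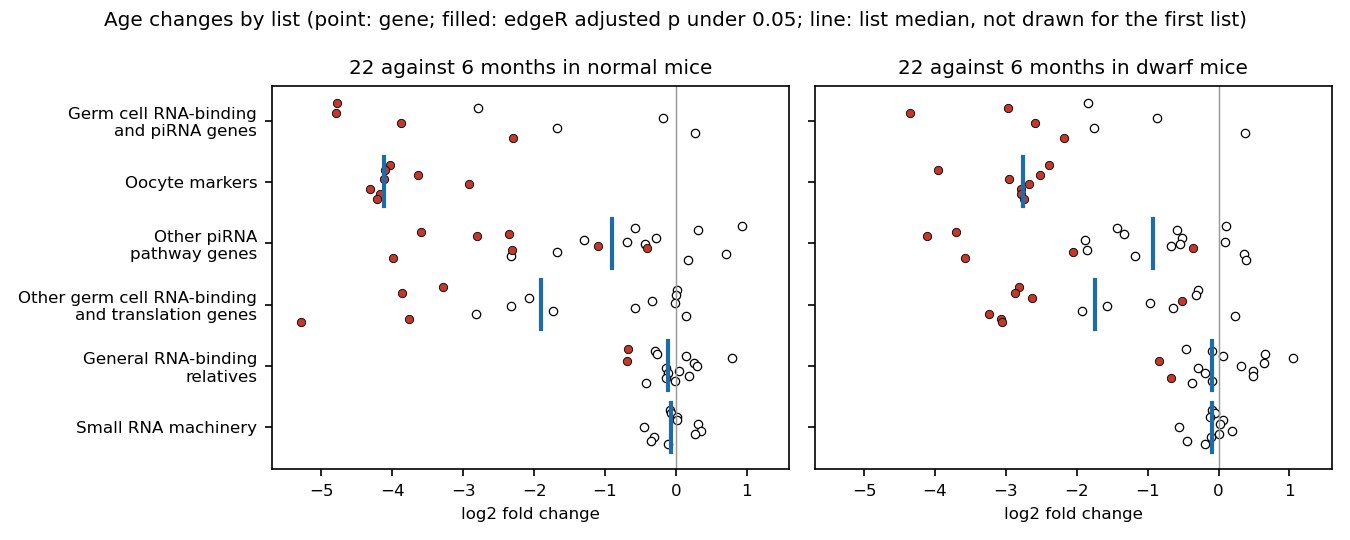
Log2 age change of the tested genes of 6 lists in normal and dwarf mice; each point is a gene, filled where edgeR's adjusted p was under 0.05, and vertical lines are list medians, not drawn for the members. Oocyte markers centre on -4.12 in normal and -2.77 in dwarf mice, and the small RNA machinery on -0.066 and -0.091.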

How the data were processed

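RNA was measured in 20 samples labelled ovary, each library taken as 1 mouse. The submitters' processing notes name mm10, HTSeq, TopHat, Bowtie2, edgeR, DESeq and TopHat2 (2.0.10). Which tool did what, the annotation's release and whether counting used strand are not given in the sources read, so reads of antisense genes cannot be told apart. The authors deposited whole-number counts per gene, 23457 genes a file, treated here as raw counts, and a gene annotation whose exons gave coordinates and exon lengths. Summary rows (9.84 to 17.6% of each file) were left out, and 0 columns were left unused.

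The tests ran in edgeR 4.0.16 under R 4.3.3, with DESeq2 1.42.0 and limma 3.58.1 as alternatives. A filterByExpr step (minimum count 10, minimum total 15) left 16099 genes. After TMM scaling, all 20 libraries entered 1 model with a mean for each of the 4 groups (common dispersion 0.165). The quasi-likelihood test was used with Benjamini-Hochberg adjustment, and it was tested on simulated data. The SE is the absolute log2 change over the square root of F. Nothing in the labels says more than that 20 mice were used, so p-values measure the spread between these libraries. Likeness used log2 CPM with a prior count of 2. Named genes were the members, up to 4 called genes of smallest p per list and the 3 most alike genes per member. Members and lists were chosen with earlier results of these data known. Alternatives covered scaling, filters, tools, sample sets, the replicate block and leaving out libraries.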

Additional observations from a re-analysis of the deposited data

Results flagged for a closer look

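Of 71 groups of 5 values examined for a sample far from the others, 5 held one, and chance gives about 1 in 20 such groups. Dazl in normal 22-month mice was at 0.0987 CPM in replicate 1 and at 0 in the other libraries. Asz1 in normal 6-month mice was at 0.669 CPM in replicate 4 and at 0 in the others. In normal 6-month replicate 2, the library with few oocyte transcripts, the log2 ratio to the 5 oocyte genes was 0.26 for Ybx2 and 3.19 for Tdrd7, above the other 4 libraries. The ratio of Tdrd5 in dwarf 22-month replicate 3 was -0.898, above its group.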

How the results depend on the processing

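Of 727 recomputed member changes, 673 kept their direction and side of the threshold, 31 passed it where the reported fit did not, 17 no longer passed and 6 changed sign. The sign changes were in values smaller than their SE: Piwil2 with age in normal mice without normal 6-month replicate 4 (0.11; -0.33 to 0.11 over all single libraries left out), Ddx4 between genotypes at 22 months without dwarf replicate 1 (-0.39; -0.39 to 0.60), and Tdrd7 between genotypes at 22 months with limma voom (0.076), without normal replicate 3 (0.037; -0.14 to 0.037), without the 3 libraries that stood apart (0.029) and without title numbers 21 to 23 (0.095). Members called with age in normal mice were 4 in the reported fit and 0 of 6 tested when only the groups compared were fitted. Dazl and Mael had too few counts to be tested in that fit. The members called were 2 without title numbers 21 to 23 and 4 to 6 with 1 library left out. In dwarf mice the 4 became 8 with limma voom, 7 with only the groups compared, 8 without the 3 libraries, 7 without normal 6-month replicates 2 and 3 (an alternative chosen after seeing the data) and 3 to 4 with 1 library left out. Between genotypes at 22 months the 1 became 2 with DESeq2, limma voom, without the 3 libraries and without normal 6-month replicates 2 and 3. It became 0 with only the groups compared or without title numbers 21 to 23, and 0 to 2 with 1 library left out. With only the groups compared, Dazl, the gene called, had too few counts to be tested. The cause of these shifts was not tested. Over all genes, the 1086 called with age in normal mice became 1766 with DESeq2, 3859 with limma voom, 0 with only the groups compared, 188 without title numbers 21 to 23, 4848 without the 3 libraries and 481 to 4384 with 1 library left out. In dwarf mice the 1802 became 2747, 7519, 5169, 1674 and 4697 in the same order, and 802 to 1681. The 735 between genotypes at 6 months became 1414 with DESeq2, 1860 with limma voom, 1991 without the 3 libraries and 369 to 1459 with 1 left out, and the 614 at 22 months became 1201, 2291, 1762 and 262 to 637. The difference of the age changes, 0 genes, became 202 without the 3 libraries and 23 without normal 6-month replicates 2 and 3, which gave 4877, 4143, 1615 and 1667 for the other comparisons. Only the groups compared gave 244 at 6 months, leaving out title numbers 21 to 23 gave 323 at 22 months, and dwarf 22-month replicates 1 and 4, the pair of libraries closest to each other, gave, when summed, 1107 with age in dwarf mice and 272 at 22 months. With the replicate block the members called were as many as without it. They were 4 and 4 for age in normal and dwarf mice, and 0 and 1 for genotype at 6 and 22 months. Same-numbered libraries correlated over 0.1 in 10 of 30 pairs, with values from -0.215 to 0.719. Libraries of unlike number were not compared, so whether the numbers pair the mice is not known. Depth limits Dazl, Mael and Asz1 most, with 2, 3 and 0 counts in the normal 22-month group.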

Other observations

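Listed genes that were too low to test were Tdrd6, Rnf17, Boll, Rbm46, Ddx25 and Stk31. Tex19.1, which limits transposon activity in germ cells, fell from 1.71 ± 0.334 to 0.129 ± 0.0891 CPM in dwarf mice (log2 -3.58 ± 0.855, edgeR adjusted p = 0.0127) and from 0.968 ± 0.939 to 0.0586 ± 0.091 CPM in normal mice (-3.99 ± 0.938, adjusted p = 0.0174). Zar1l, a relative of Zar1, fell from 1.89 ± 1.71 to 0.0375 ± 0.0602 CPM in normal (-5.29 ± 0.995, adjusted p = 0.00816) and from 4.2 ± 1.17 to 0.492 ± 0.407 CPM in dwarf mice (-3.06 ± 0.762, adjusted p = 0.0157). Btg4, an adaptor for maternal messenger RNA decay, fell from 10.4 ± 6.54 to 1.21 ± 1.29 CPM in normal (-3.29 ± 0.835, adjusted p = 0.0249) and from 12.9 ± 2.05 to 1.92 ± 1.04 CPM in dwarf mice (-2.81 ± 0.792, adjusted p = 0.0288). Akap1, a mitochondrial Tudor-domain anchor, fell in normal mice from 114 ± 31.4 to 73.3 ± 25.1 CPM (-0.68 ± 0.192, adjusted p = 0.0401).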
